A study of Homo sapiens with 8 samples.

Results

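A pair of human embryonic stem cell lines, ZFX clone 5 and ZFX clone 2, was compared directly to show where lines made with the same ZFX construct differed in expression. The members of the comparison were the array probes with a detection p-value under 0.05 on at least 2 of the 4 arrays hybridised with RNA of these clones. This took in 20196 of the 48802 probes on the array and 11696 named genes. Clone 5 and clone 2 were each measured on 2 Illumina bead arrays. All 4 arrays held total RNA from derivatives of H9 (WA-09), an established embryonic stem cell line, grown under standard conditions for such cells. Both clones had received a bacterial artificial chromosome, a large genomic insert, that carried the ZFX locus, and both had been picked by drug resistance. Each clone is 1 selected line, so what differs between them may belong to the transgene, to selection or to the clone itself, and these cannot be told apart. The other 4 arrays of the study, from the parental H9 line and from control clone 3, a clonal line without raised ZFX, are used below as reference levels. The labels leave unsaid whether each line's arrays represent independent cultures, so every p-value measures only the spread between arrays, which may be technical.

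ZFX is a zinc finger transcription factor encoded on the X chromosome and is known for its part in the self-renewal of embryonic and blood stem cells. Clonal human embryonic stem cell lines often differ from each other after subcloning, in imprinting, in signalling tone and in chromosome content. Gain of the long arm of chromosome 1 is one of the recurrent changes known in such cultures, beside gains on chromosomes 12, 17 and 20. No chromosome count or DNA measurement was used here.

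The arrays were alike in quality. Over all 8 arrays, 19177 to 20588 probes were detected, and the 4 arrays of the clones lay between 19267 and 20232. Log2 intensities correlated at 0.994 between the arrays within each clone. Between the clones the values ran from 0.990 to 0.991. Control clone 3 stood apart from the rest, at 0.981 to 0.984 against the arrays of the other lines, and it enters the comparison through the shared estimate of spread and the joint normalisation. With the 4 arrays of the clones normalised and fitted alone, an alternative added after seeing the data, 684 probes were called, 636 of them among the 682 given below. The 9 embryonic stem cell markers examined were detected on all 4 arrays, and their summed level was 14.42 to 14.45 (log2) in clone 2 and 14.45 to 14.47 in clone 5. Markers of other lineages were detected in part. On all 4 arrays this held for 5 of 9 fibroblast markers (COL1A1, COL1A2, THY1, TWIST1 and ACTA2), for 3 of the 7 neural markers on the array (DCX, STMN2 and GAP43), for FOXA2 and AFP of 7 endoderm markers, for KDR of 7 mesoderm markers and for 2 of 9 trophoblast markers. COL3A1, LUM and POSTN (fibroblast), SOX1, ZIC1 and NEUROG2 (neural), SOX17, GATA4, GATA6 and APOA1 (endoderm) and TBXT, EOMES, MIXL1, MESP1 and TBX6 (mesoderm) were detected on none of the 4 arrays.

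ZFX itself was raised in both clones. On the log2 intensity scale used throughout, it read 7.55 and 7.64 on the arrays of clone 2 and 7.07 and 7.52 on those of clone 5. H9 gave 6.06 and 5.99, and clone 3 gave 6.26 and 6.12. Both ZFX clones therefore stood above H9 and control clone 3, by 1.57 (clone 2) and 1.27 (clone 5) against H9. The difference between the clones was −0.30 (SE 0.14) for clone 5 minus clone 2 and did not pass the test (limma adjusted p = 0.268), although both arrays of clone 5 lay below those of clone 2. With 2 arrays a line, it ranged from −0.52 to −0.07 when single arrays were left out. Among 11 tested genes of the neighbourhood of ZFX on the X chromosome, ACOT9, a mitochondrial acyl-CoA thioesterase, was the one called (9.09%, against 3.93% of all genes). It read 9.64 and 9.45 in clone 2, 9.05 and 9.13 in clone 5, and 8.39 and 8.77 in H9, and was lower in clone 5 by a log2 difference of −0.45 (SE 0.106, adjusted p = 0.0175). A second ACOT9 probe fell by 0.54 (adjusted p = 0.0138). The ACOT9 call was lost in 3 of the 4 fits that left out 1 array, with adjusted p from 0.0441 to 0.225.

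Across the whole table, more genes were lower in clone 5 than higher. At an adjusted p under 0.05, 460 of 11696 genes (3.93%) were called, of which 145 were higher (1.24%) and 315 lower (2.69%). By probe the count was 682 of 20196 (3.38%). The differences were small: 2 genes were higher and 12 lower by at least 2-fold, and the median size among called genes was 0.46 (log2) against 0.13 over all genes. The median log2 difference of all genes was −0.001. Against H9 in the same fit, 2393 genes (20.5%) were called for clone 2, 859 (7.34%) for clone 5 and 3084 (26.4%) for clone 3. These last counts share the H9 arrays and are given side by side only. The number of calls depended on all 4 arrays, since leaving out any 1 of them cut the called probes to between 151 (without clone 2 replicate 1) and 291 (without clone 5 replicate 2). Scaling by medians in place of quantile normalisation gave 24 probes higher and 28 lower. Of the gene group members described below, OTX2, SFRP1, TAGLN and ANXA1 kept their calls under median scaling. They kept them too, with DUSP5, VGF, HES4 and CDKN1A, in a fit without an intensity trend, and the other group members lost theirs under both (JUN, for instance, at adjusted p = 0.248 and 0.0829, and MT1M at 0.0703 and 0.0656).

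**Figure D1:**
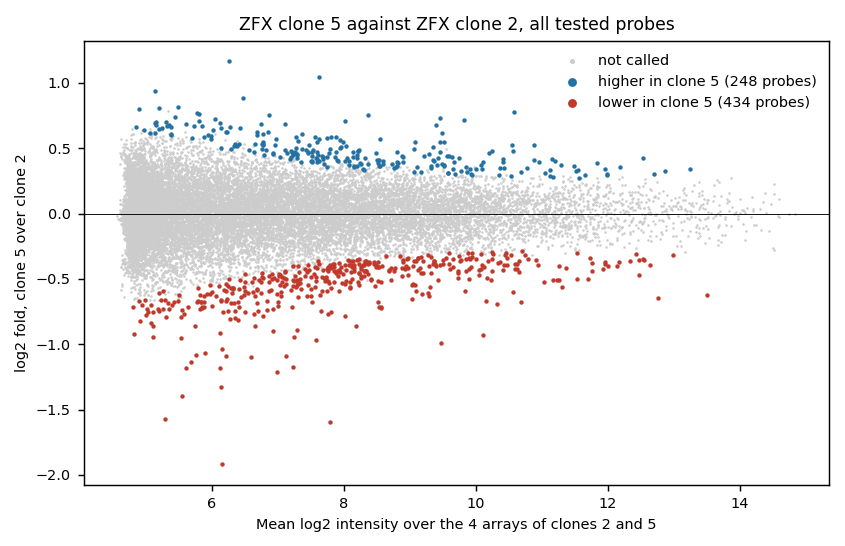
Each point is 1 tested probe, with its mean log2 intensity over the 4 arrays on the horizontal axis and the log2 difference of clone 5 minus clone 2 on the vertical axis. Coloured points mark the 248 probes called higher and the 434 called lower, and most of the called probes lie within 1 log2 unit of 0.

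The difference with the widest extent was a block of neighbouring genes on the distal long arm of chromosome 1. When the tested genes were laid along each chromosome in windows of 25, the 9 lowest of 455 window medians were 9 contiguous windows that ran from LAMC1 towards the end of chromosome 1. Their medians lay between −0.20 and −0.36 (log2, clone 5 minus clone 2). The lowest window outside the block, on chromosome 9 from GBA2 to PRKACG, stood at −0.12, and the standard deviation of all window medians was 0.062. At the other end, the highest window, on chromosome 19 from MAP1S to SUGP2, had a median of 0.14, and GDF15 in it was called lower. The bounds of the chromosome 1 block were chosen after the windows were seen, so the counts below describe it and carry no test.

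**Figure D2:**
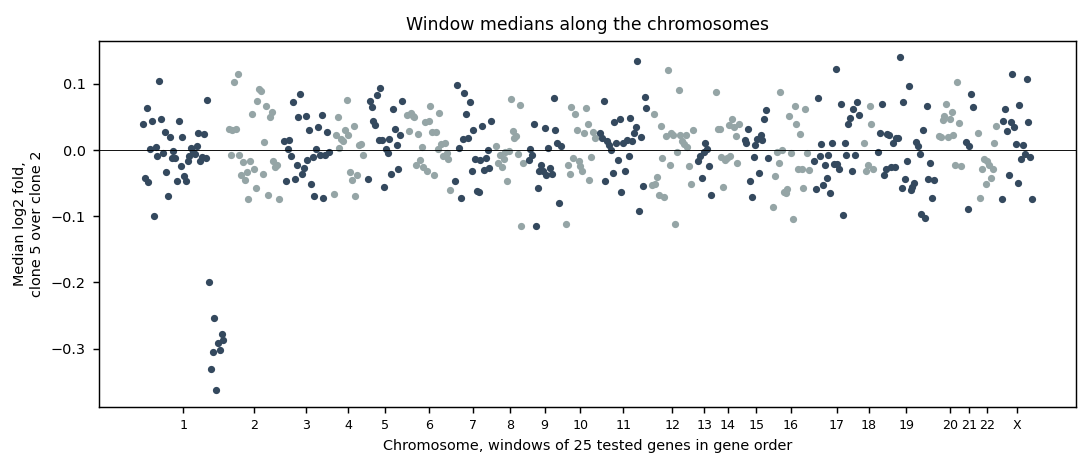
Each point is the median log2 difference, clone 5 minus clone 2, of a window of 25 neighbouring tested genes, with the chromosomes side by side along the horizontal axis. The 9 windows at the end of chromosome 1 lie at −0.20 or below, apart from all the other windows.

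Within the block, 243 genes were tested. Clone 5 was lower for 68 of them (28.0%, against 2.69% of all genes) and higher for none, while at an unadjusted p under 0.05 the counts were 132 lower and 1 higher. The log2 difference was below 0 for 207 genes (85.2%) and its median was −0.30, with the middle 50% of genes between −0.43 and −0.12. Both clone 5 arrays lay below both clone 2 arrays for 176 genes (72.4%, against 25.1% of all genes) and above them for 7 (against 23.9% of all genes). The remaining 925 tested genes of chromosome 1, before LAMC1, had a median of 0.00 with 8 higher and 21 lower. The block held 2.08% of the tested genes and 21.6% of those called lower, and outside it 145 genes were higher and 247 lower.

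**Figure D3:**
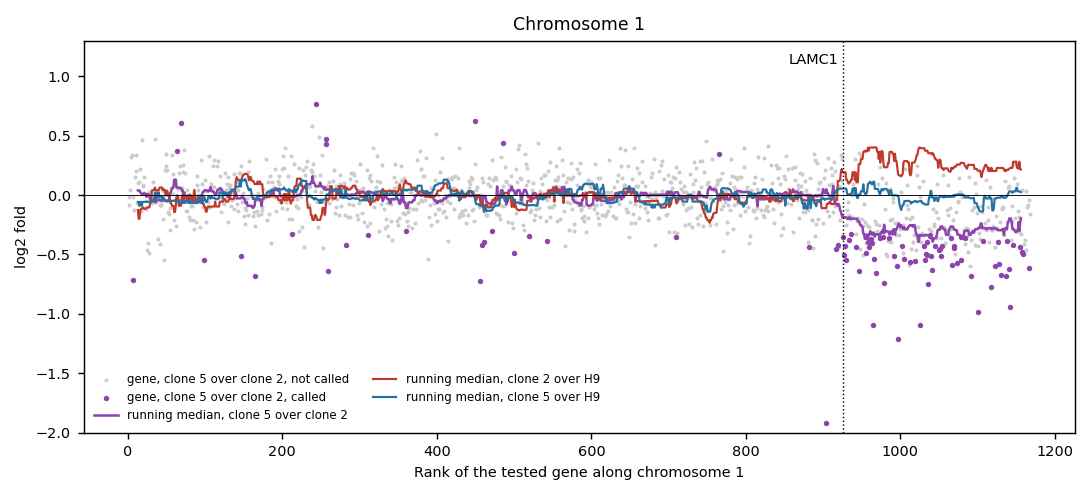
Points are log2 differences, clone 5 minus clone 2, of the tested genes of chromosome 1 (purple where called), placed by gene order on the horizontal axis, and lines are running medians of the same difference and of each clone minus H9. Beyond LAMC1 clone 2 rises above H9, to a median of 0.27, and clone 5 stays near H9, at −0.01.

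The levels in H9 showed which clone departed. Over the 243 genes the median against H9 was 0.27 for clone 2, with 93 genes called above H9 and 2 below. For clone 5 it was −0.01 (7 above, 12 below), and for clone 3 it was 0.00. Each array of clone 2, taken alone, gave 0.27 and 0.25, and those of clone 5 each gave −0.02. The shift in clone 5 minus clone 2 was thus seen on all 4 arrays and coincided with a level in clone 2 above that of the 3 other lines. It grew with brightness, from a median of −0.17 in the 81 dimmest genes (1 lower) through −0.31 in the next 81 (21 lower) to −0.36 in the 81 brightest (46 lower), of which 79 were below 0. On the authors' processed values the median of the block was −0.16 with 74 genes lower, and under median scaling it was −0.19 while other genes stood at 0.10, with 5 genes lower. Leaving out 1 array moved the median little (−0.28 to −0.30) and cut the genes lower to 22 without clone 2 replicate 1, 30 without clone 2 replicate 2, 35 without clone 5 replicate 1 and 38 without clone 5 replicate 2, and a fit without the intensity trend left 10. DNA copy number in these lines was not tested.

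Individual genes of the block differed more than its median. NUAK2, an AMPK-related kinase, read 7.45 and 7.72 in clone 2 and 6.31 and 6.44 in clone 5, with H9 at 6.66 and 6.83. Its log2 difference was −1.21 (SE 0.132, adjusted p = 6.73e-06), although a second NUAK2 probe gave −0.31 and was not called. SERTAD4, of the SERTA domain family, read 7.07 and 7.22 in clone 2 and 6.04 and 6.05 in clone 5, a difference of −1.10 (SE 0.133, adjusted p = 2.09e-05). The SERTAD4 mean was 6.53 in H9 and 7.04 in clone 3. CHRM3, a muscarinic acetylcholine receptor, fell by 0.94 and SIPA1L2 by 0.77. Mean CHRM3 was 7.71 in clone 2, 6.77 in clone 5, 6.13 in H9 and 6.23 in clone 3. Mean SIPA1L2 was 8.14 in clone 2, 7.37 in clone 5, 8.03 in H9 and 9.76 in clone 3. Clone 5 was thus the lowest line for SERTAD4 and SIPA1L2, while clone 2 was the highest for CHRM3. In the lowest window, from SERTAD4 to RRP15, 23 of 25 genes were below 0 and 12 were lower. They included ATF3, a stress-induced transcription factor (−0.75), VASH2, a vasohibin (−0.63), INTS7, an Integrator subunit (−0.55), FLVCR1, a haem exporter (−0.51), and NENF, which encodes a secreted neurotrophic protein (−0.51). Of these, SERTAD4 kept its call in all 4 fits that left out 1 array, and INTS7 lost it in all 4 (adjusted p up to 0.269). NSL1, another of the 12, was lower at its brightest probe (−0.34), while a dimmer NSL1 probe was called higher. Members of the functional groups below that lie in the block are marked as such.

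Several actin and contractile genes were among the falls, a set picked out after its values were seen and not a tested theme. Of them TAGLN and ACTG2 lie outside the block and ACTA1 and CSRP1 inside it. TAGLN (transgelin, an actin-binding protein of smooth muscle and mesenchyme) read 10.54 and 10.60 in clone 2 and 9.59 and 9.69 in clone 5. H9 gave 10.84 and 10.74 and clone 3 gave 11.67 and 11.74, so clone 5 lay below all 3 other lines. The log2 difference was −0.93 (SE 0.079, adjusted p = 1.99e-07), and a second, dimmer probe gave −0.35 without a call. ACTG2, the smooth muscle gamma actin, read 7.99 and 8.13 in clone 2, 7.08 and 7.10 in clone 5 and 7.35 in H9 on both arrays, with clone 2 above the rest. The clone 5 minus clone 2 difference of ACTG2 was −0.97 (SE 0.107, adjusted p = 7.98e-06). ACTA1, the skeletal muscle alpha actin, is a gene of the chromosome 1 block and read 9.99 and 9.94 in clone 2, 9.08 and 8.88 in clone 5 and 9.84 and 9.59 in H9. Its difference was −0.99 (SE 0.0932, adjusted p = 7.67e-07), and clone 5 was the lowest of the 4 lines. CSRP1, a LIM protein of the actin cytoskeleton that also lies in the block, fell by 1.09 (adjusted p = 5.57e-04). All 4 calls held when single arrays were left out. Other contractile genes did not pass, with log2 differences of −0.50 for ACTA2 (adjusted p = 0.0584), −0.38 for ACTC1 (0.0535) and −0.35 for CNN1 (0.284). TAGLN was the gene called by its brightest probe among 18 tested fibroblast and mesenchyme genes (5.56%, against 3.93% of all genes), whose median was −0.09. Dimmer probes of CALD1 (−0.77) and VIM (−0.40) were also called. The summed level of 9 fibroblast markers was 11.54 to 11.57 in clone 2 and 11.47 to 11.48 in clone 5, with no marker called by limma and 1 at an unadjusted p under 0.05. THY1 alone read 11.17 and 11.16 in clone 2 and 11.03 and 11.06 in clone 5. The sum therefore mainly follows THY1 and cannot show the amount of fibroblasts. The part of fibroblasts in these differences was not tested, and in bulk RNA fewer cells of a type and less RNA per cell cannot be told apart.

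Serum response factor, which drives many contractile genes, binds a sequence known as the CArG box, so the 250 bases before the start of the actin genes are shown with matches to it in capitals (RefSeq, GRCh38.p14, 5′ to 3′ on the strand of the gene). The window of ACTG2, chr2:73892758-73893007 on the plus strand, holds 2 matches and that of ACTA1, chr1:229434095-229434344 on the minus strand, holds 1.
ACTG2: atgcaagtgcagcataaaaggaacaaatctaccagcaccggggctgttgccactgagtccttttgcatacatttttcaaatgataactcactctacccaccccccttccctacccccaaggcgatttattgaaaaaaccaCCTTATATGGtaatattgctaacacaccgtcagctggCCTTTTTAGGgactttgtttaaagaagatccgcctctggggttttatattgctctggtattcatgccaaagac
ACTA1: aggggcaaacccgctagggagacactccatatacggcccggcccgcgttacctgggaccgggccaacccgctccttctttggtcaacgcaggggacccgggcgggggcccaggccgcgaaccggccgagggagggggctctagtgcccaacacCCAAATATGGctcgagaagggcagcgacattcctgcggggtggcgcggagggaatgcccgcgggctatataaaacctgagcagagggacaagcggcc
With both strands searched, a match was present in 312 of 27305 RefSeq promoter windows of this length (1.14%) and in 104 of 9513 among tested genes (1.09%). It was present in 5 of 259 among genes called lower (1.93%), ACTG2 and ACTA1 included, and in 1 of 123 among genes called higher (0.813%). A match is a description of the letters and not a measured binding site. The windows of CSRP1, JUN, ATF3 and CCN2 held none, and those of TAGLN and CCN1 were not analysed here.

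Immediate early genes, which are switched on within minutes by growth factors, or serum and many of which are also regulated by serum response factor, were lower in clone 5 as far as they were called. Of 17 tested, 5 were lower (29.4%, against 2.69% of all genes) and none higher by limma. At an unadjusted p under 0.05 there were 10, against 18.4% of all genes, and the median log2 difference was −0.25 against −0.001 over all genes. JUN, a subunit of AP-1, read 9.01 and 8.85 in clone 2, 8.13 and 8.28 in clone 5 and 8.71 and 9.08 in H9. It fell by 0.73 (SE 0.111, adjusted p = 4.46e-04). CCN2, a matricellular growth factor also known as CTGF, read 11.68 and 11.50 in clone 2 and 11.13 and 10.93 in clone 5, with H9 at 11.51 and 11.63. Its fall of 0.56 (adjusted p = 5.66e-04) was matched by a second probe at −0.51, which was also called. For JUN and CCN2 clone 2 lay within 0.03 of H9 and clone 5 was called below it. ATF3 (−0.75, in the chromosome 1 block), ZFP36, an mRNA decay factor (−0.44), and CCN1, the relative of CCN2 (−0.34), were the other 3. JUN and CCN2 kept their calls in all 4 fits without 1 array, ATF3 in 3 of 4, and ZFP36 and CCN1 in none, with adjusted p up to 0.227 and 0.171.

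Several single genes with large differences belonged to no group. TSPYL5, a nucleosome assembly protein-like gene that is silenced by methylation in some tumours, read 6.09 and 6.07 in clone 2, 6.05 and 5.84 in H9, and 5.78 and 5.92 in clone 3. In clone 5 it read 4.45 and 4.57 and was detected on neither array, so only a bound can be given there. The level in clone 2 was at least 2.44-fold higher than in clone 5 (adjusted p = 1.98e-06), the bound being the dimmest detected probe of each clone 5 array. This bound belongs to the background-corrected scale: on the authors' processed values the same probe gave a log2 difference of −0.49. TSPAN18, a tetraspanin, had the same order, with 6.66 and 6.78 in clone 2, 6.93 and 6.74 in H9, and 5.55 and 5.53 in clone 5 (log2 difference −1.18, SE 0.132, adjusted p = 8.29e-06). For these 2 genes clone 5 stood below the other 3 lines. LCP1, the leukocyte actin bundler L-plastin, differed in the other way. It read 6.76 and 6.85 in clone 2, 5.57 and 5.39 in clone 5 and 5.60 and 5.56 in H9, a difference of −1.32 (SE 0.152, adjusted p = 1.07e-05), with clone 2 above all other lines. ARRB1, beta-arrestin 1, read 7.84 and 7.80 in clone 2 and 6.65 and 6.63 in clone 5, against 6.51 and 6.57 in H9 and 9.78 and 9.83 in clone 3. Its difference was −1.18 (SE 0.101, adjusted p = 1.99e-07), and its 2 other probes were called too, at −0.78 and −0.72. ANXA1, annexin A1, fell by 1.14 and its relative ANXA3 by 0.73, the 2 genes called among 14 annexins and S100 proteins (14.3%, against 3.93% of all genes). Dim genes differed less on the authors' processed values, which gave −0.55 for LCP1, −0.71 for ARRB1 and 0.51 for ECHDC3 (below), against −0.88 for the bright gene TAGLN.

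KIAA0040, the gene with the lowest difference, rested on 1 array. It read 8.88 on the array of clone 2 replicate 2 and between 4.98 and 5.35 on the other 7, which gave a log2 difference of −1.92 (SE 0.538, adjusted p = 0.048) and an adjusted p of 0.806 without that array. Of the 15 largest falls, 14 kept their call when each array in turn was left out, KIAA0040 being the exception. Clone 2 was called above H9 for 11 of the 15, and clone 5 was called below H9 for 5 and above it for 1. RPL10L (−1.18), a retrogene copy of RPL10, may share signal with its parent gene, whose sequence is nearly the same.

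**Figure D4:**
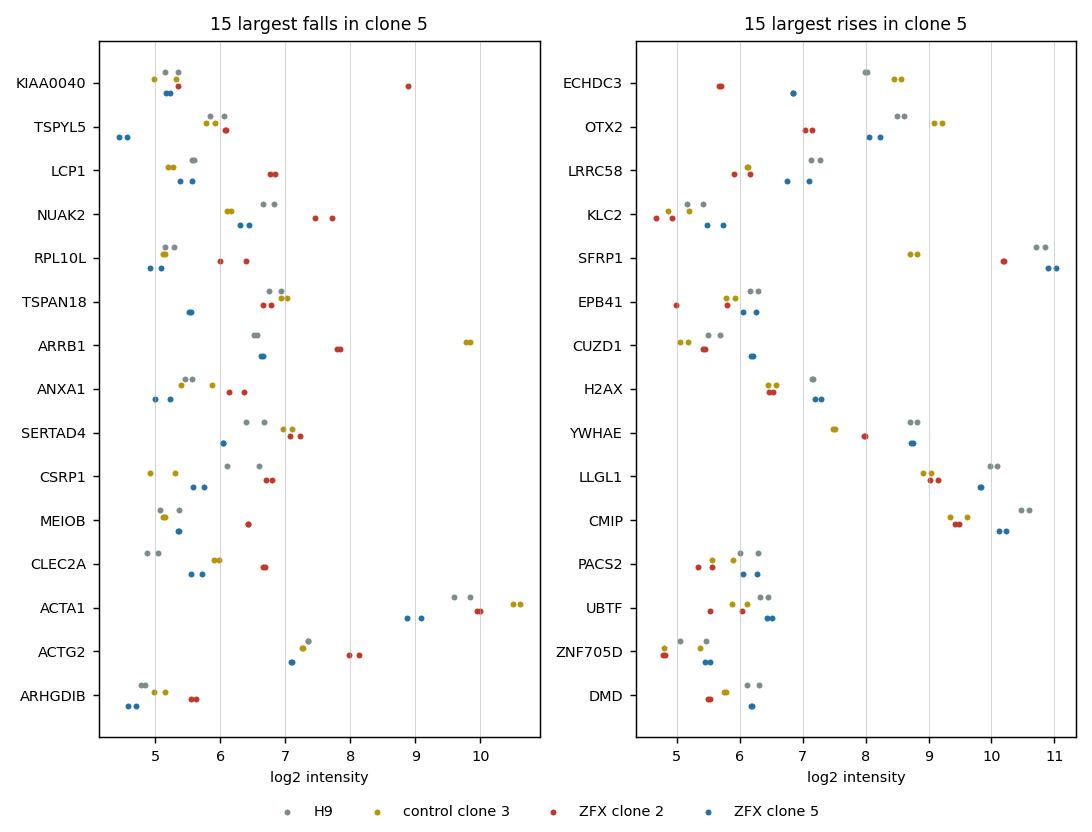
Log2 intensities on each of the 8 arrays for the 15 genes with the largest falls and the 15 with the largest rises in clone 5 against clone 2, with 1 marker for each array and a colour for each line. Clone 2 was called apart from H9 for 11 of the falls, all above, and for 12 of the rises, all below, while for TSPYL5 and TSPAN18 it is clone 5 that stands away.

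Rises were smaller than falls. ECHDC3, a mitochondrial enoyl-CoA hydratase-like protein, read 5.70 and 5.66 in clone 2, 6.84 and 6.85 in clone 5, and a mean of 8.01 ± 0.019 (SD, n = 2) in H9. Clone 5 thus lay between clone 2 and H9, at a log2 difference of 1.17 (SE 0.11, adjusted p = 7.67e-07). OTX2, a homeobox factor of the primed epiblast and the anterior neural plate, read 7.15 and 7.04 in clone 2, 8.23 and 8.05 in clone 5, 8.61 and 8.50 in H9 and 9.09 and 9.21 in clone 3. Its difference was 1.05 (SE 0.1, adjusted p = 8.42e-07), though a second OTX2 probe gave 0.15 without a call. ZIC2, another factor of the early neural plate and epiblast, rose by 0.37 (adjusted p = 0.0141). It was the other gene called among 11 tested neuroectoderm genes (18.2%, against 3.93% of all genes), whose median was 0.10. The ZIC2 call was lost in 3 of 4 fits without 1 array (adjusted p up to 0.12). SFRP1, a secreted Wnt antagonist, read 10.18 and 10.20 in clone 2, 11.03 and 10.90 in clone 5, 10.85 and 10.71 in H9 and 8.71 and 8.82 in clone 3. Its rise of 0.78 (SE 0.0838, adjusted p = 6.27e-06) placed clone 5 within 0.18 of H9.

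A set of rises shared 1 order of the lines, with H9 and clone 5 high and clone 2 and clone 3 low. The set was picked out after its values were seen. LLGL1, a cell polarity protein, read 9.03 and 9.15 in clone 2, 9.81 and 9.83 in clone 5, 9.98 and 10.08 in H9 and 9.05 and 8.92 in clone 3. YWHAE, the epsilon 14-3-3 protein, read 7.98 and 7.99 in clone 2 and 8.72 and 8.76 in clone 5, against 8.81 and 8.70 in H9 and 7.49 and 7.52 in clone 3. H2AX, the histone variant phosphorylated at DNA breaks, rose by 0.76, LRRC58 by 0.88 and CMIP by 0.72 with H9 and clone 5 again above the other lines. Among the 15 largest rises, clone 2 was called below H9 for 12, and clone 5 was called different from H9 for 4. Clone 3 was called below H9 for 8 of the 15 and above it for 2. Calls were kept in all 4 fits without 1 array for 8 of the 15 rises. They were lost in all 4 for CUZD1, ZNF705D and DMD, of which ZNF705D read 4.81 and 4.77 in clone 2, near the dimmest detected probe.

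Metallothioneins, small cysteine-rich proteins that bind zinc and copper and are induced by metals through the factor MTF1, rose where they were called. The group of 8 tested genes held 7 metallothioneins and SLC30A1, a zinc exporter that was not called. Of the 8, 3 were higher (37.5%, against 1.24% of all genes) and none lower by limma, 4 passed an unadjusted p under 0.05 (against 18.4% of all genes), and the median log2 difference was 0.20 (0.24 without SLC30A1). MT1M read 6.24 and 5.95 in clone 2, 6.73 and 6.77 in clone 5, and 7.64 and 7.68 in H9, a rise of 0.65 (SE 0.127, adjusted p = 0.00464). MT2A, the most widely expressed isoform, read 10.86 and 11.03 in clone 2, a mean of 11.37 ± 0.221 (SD, n = 2) in clone 5 and 11.43 and 11.79 in H9 (0.42, SE 0.107, adjusted p = 0.0271). MT1E rose by 0.31 (adjusted p = 0.0241). In all 3 genes clone 5 lay above clone 2 on every array, and clone 2 was called below H9. The MT1M call was lost in 1 of 4 fits without 1 array, MT2A in 3 and MT1E in all 4, and these copies are similar enough that a probe may bind more than 1. MTF1 binds metal response elements with the core TGCNCNC, so the 250 bases before MT2A are shown with matches in either direction in capitals (chr16:56608334-56608583, plus strand, RefSeq, GRCh38.p14).
MT2A: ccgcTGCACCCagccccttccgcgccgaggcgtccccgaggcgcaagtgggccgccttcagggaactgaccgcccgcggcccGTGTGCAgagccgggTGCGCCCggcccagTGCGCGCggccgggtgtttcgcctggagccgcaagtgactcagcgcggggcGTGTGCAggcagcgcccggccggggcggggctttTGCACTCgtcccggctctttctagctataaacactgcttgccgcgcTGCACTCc
It holds 7 matches. The windows of MT1H and MT1X, which were tested and not called, held 8 and 4, that of SLC30A1 held 1, and the windows of MT1M and MT1E were not analysed here. The core is short and common: it was present in 48.4% of all 27305 promoter windows, in 56.2% of those of tested genes and in 61.0% of those of genes called higher.

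In the stress and growth arrest groups the calls went in both directions. CDKN1A, the p21 inhibitor of cyclin-dependent kinases and a classical p53 target, read 8.90 and 8.88 in clone 2, 8.13 and 8.23 in clone 5, 7.74 and 7.83 in H9 and 9.01 and 8.89 in clone 3. It fell by 0.71 (SE 0.0938, adjusted p = 6.61e-05), which left clone 5 between H9 and clone 2. GDF15, a secreted stress cytokine, fell by 0.66 (adjusted p = 0.0428, lost in all 4 fits without 1 array). CDKN1A and GDF15 were the 2 genes called among 15 p53 targets (13.3%, against 3.93% of all genes, median −0.14). The amino acid stress group had 3 of 21 genes higher (14.3%, against 1.24% of all genes), with a median of 0.07. They were PSAT1 and PSPH of serine synthesis (0.53 and 0.38) and GARS1, the glycyl-tRNA synthetase (0.40). A second PSPH probe gave 0.19 without a call. PSAT1 read 10.66 and 10.58 in clone 2, 11.07 and 11.22 in clone 5 and 11.10 and 11.40 in H9, and kept its call in all 4 fits. HYOU1 (0.55) was the gene called among 14 ER chaperones (7.14%) and BAG3 (−0.36) among 15 heat shock genes (6.67%). COX5B (0.32) was called among 25 respiratory chain genes (4%) and SLC2A1 (−0.30) among 26 glycolysis and hypoxia genes (3.85%), near the 3.93% of all genes. The calls of BAG3, COX5B and SLC2A1 were lost in all 4 fits without 1 array. Dimmer probes of PKM in the glycolysis group (0.59 and 0.43), of HSPD1 in the heat shock group (0.44) and of WARS1 in the amino acid stress group (0.46) were called, while the brightest probe of each gene was not.

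Signalling groups had 1 to 3 called members each, against 3.93% of all genes: 20% of the Wnt group, 16.7% of the BMP and retinoid groups, 13.3% of YAP targets and 5.88% of the FGF and Notch groups. The share was 7.69% in the interferon group, 7.14% in the Nodal group and 4.76% in the extracellular matrix group. Among 15 Wnt genes SFRP1 was higher, while the ligand WNT3 fell by 0.61 and the target cyclin D1 (CCND1) by 0.40. The WNT3 difference ranged from −0.89 to −0.32 when single arrays were left out, and its call was lost on the authors' processed values. For CCND1 the arrays read 11.39 and 11.52 in clone 2, 11.05 and 11.07 in clone 5 and 11.54 and 11.56 in H9. Among 12 BMP genes the ligand BMP7 (−0.60) and the inhibitory SMAD6 (−0.46) were lower, both calls being lost in all 4 fits without 1 array. DUSP5, a nuclear phosphatase that restrains ERK, read 9.49 and 9.48 in clone 2, 8.90 and 8.84 in clone 5 and 8.91 and 8.81 in H9, and fell by 0.61 (adjusted p = 1.87e-04). It was the gene called among 17 FGF and ERK genes. HES4, a Notch target (−0.71), was the gene called among 17 Notch genes and IFITM1, an interferon-induced membrane protein (−0.52), among 13 interferon genes. In the Nodal group LEFTY2, an inhibitor of Nodal that lies in the chromosome 1 block, fell by 0.55, with 14 tested. PTPN14, also in the block (−0.43), and AXL (−0.39) were lower among 15 YAP targets, although a second AXL probe gave −0.0007 and the AXL call was lost in all 4 fits without 1 array. A second PTPN14 probe gave −0.21 without a call. The YAP group as counted did not hold CCN1 and CCN2, which were called lower in the immediate early group. In the extracellular matrix group LAMC1, the first gene of the block, fell by 0.35 (lost in all 4 fits) among 21 collagens, laminins and integrins. In retinoid metabolism CYP26A1, which degrades retinoic acid, rose by 0.43 and DHRS3, which reduces retinal, fell by 0.55. Dimmer CYP26A1 probes gave −0.21 and 0.03 without a call. With single arrays left out, the difference ranged from 0.29 to 0.57 for CYP26A1 and from −0.70 to −0.40 for DHRS3.

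Among 22 tested neuronal and secretory genes, VGF and SYT1 were lower in clone 5 (9.09%, against 2.69% of all genes), and 7 passed an unadjusted p under 0.05. The gene groups, this one included, had been chosen with earlier results of these data known. The share therefore describes the group and carries no test. Against H9 the group median was 0.26 in clone 2 and 0.08 in clone 5. VGF, a neuropeptide precursor, read 8.64 and 8.59 in clone 2 and 7.75 and 7.77 in clone 5, against 7.70 and 7.82 in H9 and 7.22 and 7.18 in clone 3. It was lower by a log2 difference of −0.86 (SE 0.1, adjusted p = 1.25e-05), so that clone 5 lay at the H9 level. SYT1, synaptotagmin 1, fell by 0.49 (adjusted p = 0.0108, lost in 3 of 4 fits without 1 array). The median of the group was −0.04.

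By their brightest probes, the genes of the pluripotency core were not called. POU5F1 (OCT4) read 11.23 and 11.26 in clone 2 and 11.41 and 11.49 in clone 5, a log2 difference of 0.21 that did not pass (adjusted p = 0.174). NANOG gave −0.12 (adjusted p = 0.549) and SOX2 −0.05 (adjusted p = 0.855), although a dimmer SOX2 probe was called lower at −0.30 (adjusted p = 0.0457). GAL, the galanin precursor, was the gene called among 15 embryonic stem cell markers (6.67%, against 3.93% of all genes), at −0.32. The GAL difference ranged from −0.37 to −0.26 when single arrays were left out, and its call was lost on the authors' processed values. DPPA2, a chromatin factor of pluripotent cells, read 7.43 and 7.55 in clone 2, 6.96 and 6.84 in clone 5 and 6.28 and 6.31 in H9. Its fall of 0.58 (SE 0.126, adjusted p = 0.00974, lost in 3 of 4 fits without 1 array) was the 1 call among 13 DPPA and naive-type factors (7.69%), whose median was −0.22. A dimmer probe of NR5A2, in the chromosome 1 block, was called at −0.63. PCDHB9 (−0.48) was called among 7 clustered protocadherins (14.3%, against 3.93% of all genes). Its difference ranged from −0.64 to −0.31 when single arrays were left out.

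**Figure D5:**
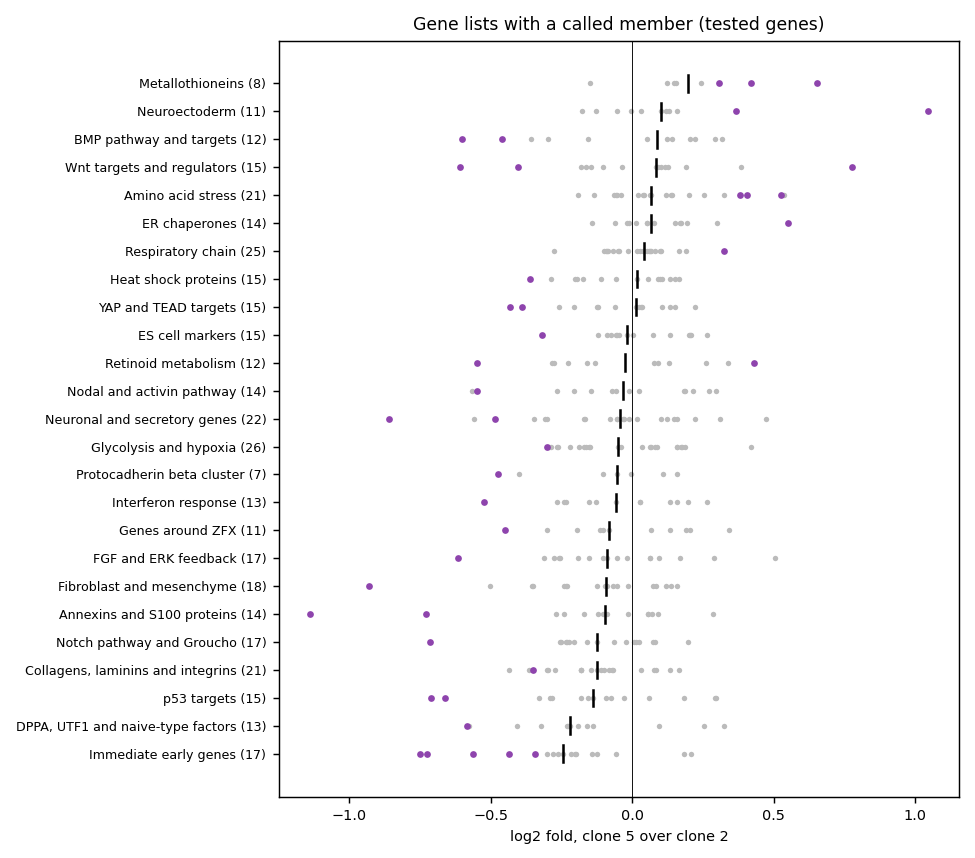
Log2 differences, clone 5 minus clone 2, for the tested members of the 25 gene groups with at least 1 called gene, with 1 point for each gene and called genes coloured. The immediate early group has its median at −0.25, the DPPA and naive-type group at −0.22 and the metallothionein group at 0.20. Other medians include those of p53 targets (−0.14), collagens, laminins and integrins (−0.13), neuroectoderm (0.10) and neuronal genes (−0.04).

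In all, 587 of the 790 genes in 41 groups were tested and 42 were called (7.16%, against 3.93% of all genes), 12 higher and 30 lower. The groups had been chosen with earlier results of these data known, so a share above that of all genes is no independent result. The 16 groups without a call by limma on the brightest probe of each gene held 204 tested genes, of which 36 (17.6%) had an unadjusted p under 0.05, against 18.4% of all tested genes. They were cell cycle and replication (31 tested, median 0.10), ribosomal proteins (27), imprinted genes (19), cholesterol synthesis (18), epithelial junctions (17), the BCL2 family (13), genes of an often gained interval of chromosome 20 (13), BEX and TCEAL genes (12), HLA class I (11) and class II (9) genes, trophoblast and amnion (9), DNA methylation enzymes (8), germline genes (8), mesoderm (7), endoderm (4) and primitive streak (1). The pooled share was uneven among these groups. An unadjusted p under 0.05 was reached by 12 of 31 cell cycle and replication genes and by 4 of 7 mesoderm genes. It was reached by 1 of 27 ribosomal protein genes and by 0 of 11 HLA class I genes. Few endoderm, primitive streak and germline genes reached detection, so those groups were hardly measured. Dimmer probes of PMAIP1 (0.58, adjusted p = 0.00237) and MCL1 (0.40, adjusted p = 0.0196) of the BCL2 family and of the imprinted GRB10 (0.46, adjusted p = 0.0303) were called higher.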

How the data were processed

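Total RNA of 4 lines (H9, ZFX clone 2, control clone 3 and ZFX clone 5), with 2 arrays each, was biotin-labelled and hybridised to Illumina bead arrays, per the labels. The authors deposited non-normalized probe intensity values together with detection p-values, and a table of log2 values in which normalization is not stated. BeadStudio is named in the submitters' processing notes. A genome build is not given in the sources used here.

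Intensities were corrected with limma 3.58.1 (R 4.3.3) by normexp, with an offset of 16 and control levels estimated through the detection p-values, then quantile normalised over the 8 arrays and log2-transformed. Probes detected at p under 0.05 on at least 2 of the 4 clone arrays were kept. A model with 1 mean for each of the 4 lines, with empirical Bayes moderation and an intensity trend, was fitted. All adjusted p-values are Benjamini-Hochberg values over the 20196 probes, and those for single genes throughout the text come from this limma fit. A gene is represented by its probe with the highest mean over the 4 arrays. A fold against an undetected clone is a bound set at the dimmest detected probe. The scripts were tested on simulated data. The number of arrays limits the precision, and the median SE was 0.125 on the log2 scale.

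Probe names came from the platform annotation. Of the 48802 probes, 28098 had 1 symbol, 13 several and 20691 none. The 4844 unnamed probes tested (122 called) are not discussed. Gene order and promoters came from RefSeq tables of GRCh38.p14. Figures were drawn with matplotlib 3.10.9.

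The genes named were ZFX, the 15 strongest rises and as many falls of called genes whose clones did not overlap, up to 5 members of each gene group with the largest difference, and up to 6 genes each of the highest and lowest chromosome window. CHRM3, SIPA1L2, the dimmer probes of genes whose brightest probe was not called, and the bounds of the chromosome 1 block, were chosen after their values were seen. The members and gene groups were chosen with earlier results of these data known. Alternatives were the background correction, scaling, detection filter, intensity trend, the authors' values, only the 4 clone arrays, a replicate block, leaving out each array and, added after seeing the data, the 4 clone arrays normalised alone.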

Additional observations from a re-analysis of the deposited data

How the results depend on the processing

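No named call changed direction under any alternative run. The counts of called probes depended on 3 choices. Median scaling gave 24 higher and 28 lower with 4 listed genes called, a fit without the intensity trend gave 16 and 53 with 8 listed genes, and no detection filter gave 142 and 289. Leaving out 1 array gave 47 to 87 higher, 104 to 205 lower and 16 to 26 listed genes called, and these fits have fewer samples. Of 73 named called genes, 32 kept their call in all 4 such fits. Median scaling ended the call of 44 and dropping the trend that of 45, and the cause was not tested. On the authors' values the size of a named difference was 0.665 of that given above at the median, with 3 calls lost, and normalising the 4 clone arrays alone ended the call of KIAA0040 (adjusted p = 0.0692). The lowest chromosome window moved to −0.26 under median scaling, and the highest to 0.24. With windows of 15 and 41 genes the highest was 0.21 and 0.10.

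Arrays with the same replicate number shared little deviation, with a correlation of 0.033 between clone 2 and clone 5. These values were taken after joint normalisation, which removes array-wide shifts. They cannot show whether the arrays were run in pairs, which the labels leave unsaid. A replicate block called 262 probes higher and 439 lower and ended no named call. Dim probes are limited by background: 6 called genes were not detected on any clone 5 array. Of 153 called genes with over 1 probe, 19 had another probe called the same way, 56 had one of opposite sign, and 2 (INIP and NSL1, named after their values were seen) had one called the opposite way.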
